A study of Mus musculus with 31 samples.

Results

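The genes described here are Egr1, Egr2, Egr3, Fos, Fosb, Jun, Junb, Dusp1 and Ier2, which are immediate-early genes, and Nab2, a corepressor of the Egr factors. They were chosen by gene name, as every probe whose name in the array files is one of these symbols. These 10 genes, of 19797 tested, are read by 17 probes, and 14 of the probes passed the filter on dim spots, at least 1 for each gene. The data are 31 one-colour Agilent arrays of distal colon RNA from BALB/c mice, with 1 array for each mouse, made to see how ingested E171, the food additive form of titanium dioxide, changes expression in a chemically induced model of colorectal cancer. All mice, a few weeks old at the start, had been given a single injection of azoxymethane (AOM), a colon carcinogen, and then dextran sodium sulphate (DSS), which injures the colon lining, in the drinking water during the first days. The CRC + E171 mice also received E171 by gavage at 5 mg/kg body weight per day on 5 days a week, while the CRC mice received sonicated water. Mice were taken after 2, 7, 14 and 21 days, and each group held 4 arrays (2 males and 2 females) except CRC at 21 days, which held 3 (1 male and 2 females). The comparison is therefore of E171 on top of AOM/DSS, and mice without AOM/DSS were not analysed here.

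Immediate-early genes are transcribed within minutes when growth factors, cytokines, injury or handling activate the ERK and p38 kinases, without new protein synthesis. Egr1, Egr2 and Egr3 are zinc finger transcription factors, and Nab2, itself induced by them, binds them and represses their targets. Fos, Fosb, Jun and Junb form the AP-1 dimers, Dusp1 is a phosphatase that switches off p38, JNK and ERK, and Ier2 is a small nuclear protein. In the intestine these genes are known to respond to epithelial injury and to growth factor signals, and in T cells Egr2 and Egr3 follow the antigen receptor.

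RefSeq promoter entries (GRCm38.p6) were found for 7 of the 10 genes, and the 250 bases before the start are shown for 3 of these whose levels are described closely below. Capitals mark a CArG box, the site of serum response factor, in Egr2 and a cyclic AMP response element (TGACGTCA) in Dusp1, and the Nab2 window holds no match to a searched motif.
Egr2, chr10:67537619-67537868, plus strand: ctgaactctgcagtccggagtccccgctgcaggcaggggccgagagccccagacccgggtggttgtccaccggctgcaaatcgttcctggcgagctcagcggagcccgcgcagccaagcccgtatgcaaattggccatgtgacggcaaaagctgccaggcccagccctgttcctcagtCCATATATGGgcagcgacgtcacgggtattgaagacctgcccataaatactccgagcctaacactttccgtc
Nab2, chr10:127666704-127666953, minus strand: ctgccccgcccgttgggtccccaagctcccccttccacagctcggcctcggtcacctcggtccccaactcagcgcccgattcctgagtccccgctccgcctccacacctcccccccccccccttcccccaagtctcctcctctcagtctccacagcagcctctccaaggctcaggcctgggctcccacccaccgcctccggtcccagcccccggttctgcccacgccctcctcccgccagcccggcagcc
Dusp1, chr17:26508473-26508722, minus strand: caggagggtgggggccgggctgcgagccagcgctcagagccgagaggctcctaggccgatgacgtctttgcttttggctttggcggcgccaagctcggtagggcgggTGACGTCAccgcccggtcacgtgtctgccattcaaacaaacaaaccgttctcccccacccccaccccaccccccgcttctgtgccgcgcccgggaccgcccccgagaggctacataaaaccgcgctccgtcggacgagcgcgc

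The 4 motifs searched on both strands were the CArG box, TGACGTCA, the AP-1 site TGANTCA and the Egr site GCGNGGGCG. Egr2 has 5 annotated starts, and 4 of their windows held a CArG box. The windows of starts 3, 4 and 5 overlap and share the same site, CCATATATGG, which lies 72 bases before start 3, the start shown. The window of start 2 held another, CCTTTTTTGG. A CArG box occurred in 1.47% of the 32851 mouse promoter windows of this length, TGACGTCA in 1.55%, TGANTCA in 6.75% and GCGNGGGCG in 4.70%. Fosb held an Egr site 50 bases before its start. Jun, Junb, Fos and Nab2 held none of the 4 motifs in these windows. These are matches of letters in a fixed window.

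Every level below is the log2 of a spot's signal minus the log2 of the 75th percentile of its array, averaged over the probes of a gene, so that 0 lies at that percentile. A difference is the mean of the CRC + E171 arrays minus that of the CRC arrays at 1 day, and its error comes from a limma model that holds all 8 groups. A gene was called when its linear fold change was at least 1.5 and its unadjusted p was under 0.05, and the adjusted p (Benjamini-Hochberg, over all 19797 genes) is given beside it. The level of one gene cannot be set against that of another on these arrays. A fall in RNA of the whole tissue cannot be told apart from fewer cells of the type that makes it. Depending on the array 67.4 to 78.9% of spots passed as well above background, at least 7 of 8 colonocyte markers were detected on each of them, and 1 array labelled male (CRC 14 days male 2) had Xist at -1.60, within the range of the females. Sexes are used as labelled. Each limma p sets a difference against the spread between single mice within groups, estimated over all 8 groups with information shared between genes. CRC and CRC + E171 arrays of 1 day were on separate slides, so differences between slides enter that comparison too. With 3 or 4 arrays per group the precision is limited.

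Of the 14 probes kept, 11 were well above background on all 31 arrays. The dim ones among those kept were both Egr3 probes (22 and 27 arrays) and 1 of the Fosb probes (6 arrays). The Egr3 probes lie on chromosome 14 of mm9 at 70481979 to 70482038 and at 70482361 to 70482420, on the plus strand. The Nab2 probe lies on chromosome 10 at 127098009 to 127098068 on the minus strand, and the Dusp1 probe on chromosome 17 at 26642624 to 26642683 on the minus strand. The Egr2 probe lies on chromosome 10 at 67004758 to 67004817 and the Fos probe on chromosome 12 at 86818118 to 86818177, both on the plus strand. The array files pair each with a RefSeq transcript of its gene, and whether it falls in a coding or untranslated exon was not analysed here.

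Egr1, Egr2, Egr3, Nab2 and Junb were lower in every CRC + E171 array than in every CRC array after 21 days of exposure, and of these Egr1 and Egr3 were called. At this day 5 of the 10 members showed no overlap, all 5 in the lower direction, where 8.01% of all genes showed none and 3.36% were lower without overlap. These 5 genes were read on the same arrays, and several were correlated with each other over the arrays (below). They are therefore not 5 separate observations. Called were 2 of 10 members, where 2.67% of all genes were called and 1.82% called lower. The median difference of the 10 members was -0.44, against 0.02 for all genes. In limma 0 of 10 members reached an adjusted p under 0.05, as did 0 genes in all, and 2 members had an unadjusted p under 0.05.

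Egr1, the factor that turns growth signals into transcription of repair and growth genes, had levels of -1.41 and -1.62 in the CRC + E171 females and -1.21 and -1.46 in the males at 21 days. The CRC females stood at 0.17 and -0.23 and the CRC male at -0.46. These CRC + E171 arrays held the 4 lowest Egr1 levels of the 31 arrays, with CRC 2 days male 1 next at -1.17. The mean level was -1.43 ± 0.17 (SD, n = 4) under E171 and -0.17 ± 0.32 (SD, n = 3) in CRC mice. Egr1 was thus 2.38-fold lower, a log2 difference of -1.25 (SE 0.52, 95% interval -2.33 to -0.18, limma p = 0.0232, adjusted p = 0.854, two-sided exact permutation p = 0.0571). With 4 arrays against 3 no exact permutation p can be under 0.0571. Within the scan day that held arrays of both groups, 2 against 2, the difference was -1.17. Without CRC 21 days female 1 the difference was -1.08 and was no longer called, and the call stayed with each of the other 6 arrays left out.

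Egr3, which acts with Egr2 in T cell tolerance and is needed for muscle spindles, was dim at 21 days with E171. The CRC + E171 females had levels of -6.44 and -7.45 and the males -6.31 and -5.36, and a probe was above background on 1 of these 4 arrays. The CRC females had -5.05 and -2.72 and the male -4.20, each above background, so the groups did not overlap. The difference was -2.40 (SE 0.99, limma p = 0.0224, adjusted p = 0.854, exact permutation p = 0.0571), and its size is uncertain since 3 of the 4 CRC + E171 arrays were not above background. Taken singly, the probes gave -2.21 and -2.59, and both were called. With normexp background correction, which draws dim spots together, the difference was -0.92 and was not called. The call was also lost without CRC 21 days female 2, the brightest array (-1.77), and without CRC + E171 21 days female 2 (-2.05).

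Egr2 at 21 days was at -2.78 and -3.55 in the CRC + E171 females and -3.38 and -2.78 in the males, against -2.47 and -1.21 in the CRC females and -2.31 in the male. The groups did not overlap, and the difference of -1.12 (SE 0.82, limma p = 0.182, adjusted p = 0.908, exact permutation p = 0.0571) was not called. Nab2 was at -0.68 and -0.89 in the CRC + E171 females and -0.51 and -0.39 in the males, and at 0.46, 0.20 and -0.26 on the CRC arrays. Its difference was -0.75 (SE 0.42, limma p = 0.0857, adjusted p = 0.884, exact permutation p = 0.0571), again with no overlap. In a fit of the 21-day arrays alone, where only these 7 arrays set the spread, Egr2 and Nab2 were called as well. Junb ranged from 0.57 to 1.05 with E171 and from 1.11 to 1.26 without, a difference of -0.42 (SE 0.29, adjusted p = 0.902). Fos, Fosb, Jun, Dusp1 and Ier2 overlapped between the groups at 21 days, with differences from -0.47 (Fos) to 0.48 (Fosb, 0.32 by the probe seen on all arrays and 0.64 by the dim one).

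**Figure D1:**
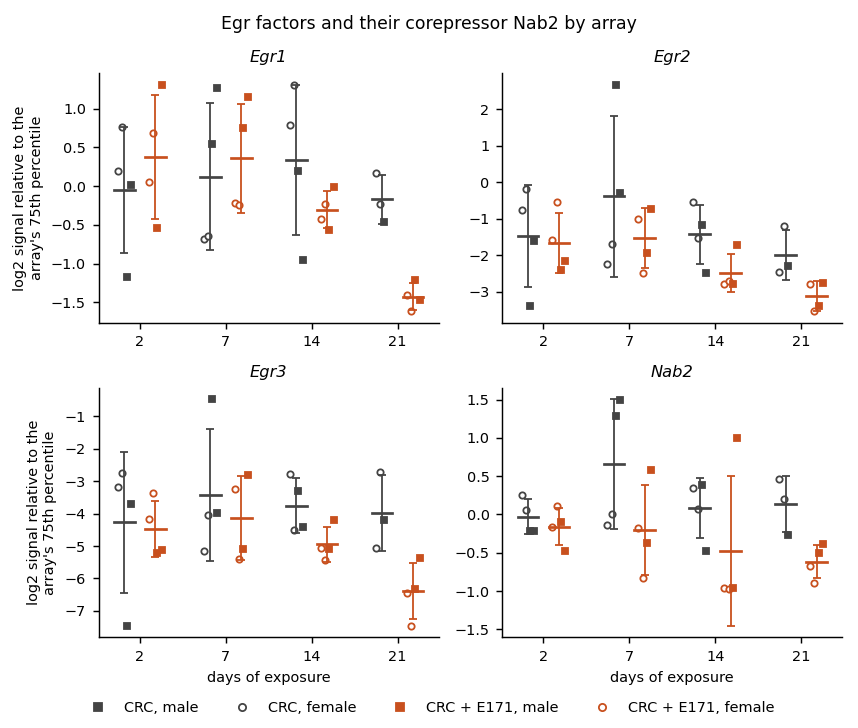
Log2 signal of Egr1, Egr2, Egr3 and Nab2 relative to the array's 75th percentile (vertical axis), by days of exposure (horizontal axis); squares are males, open circles females, bars the mean ± SD of 3 or 4 arrays. The CRC + E171 arrays of 21 days lie below the CRC arrays of that day for all 4 genes, and CRC 7 days male 1 stands highest for Egr2 (2.68) and Egr3 (-0.47).

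Marker genes of cell types differed between these arrays too. The level of a marker list is the median over its genes of the log2 signal centred on each gene's mean over the 31 arrays. At 21 days the 6 endothelial markers lay between -0.48 and -0.21 with E171 and between -0.20 and 0.32 without, and 0 endothelial and 0 T cell genes were called. B cell markers were the only list with a call at this day, 1 of 6, which was lower, and lay between -2.18 and 0.16 with E171 and between -2.93 and 2.07 without. T cell markers (6 of 7 tested) lay between -1.48 and -0.71 with E171 and between -1.59 and 1.20 without, where CRC 21 days female 2, the array with the highest Egr3 of the 7, was also the highest. Colonocyte markers lay between 0.49 and 1.06 with E171 and between -0.01 and 0.84 without. Squamous epithelium markers were at 6.86 on CRC female 1, at 3.71 on CRC + E171 female 1 and at -0.78 or lower on the other 5 arrays. Without CRC female 1 the Egr1 difference was still -1.08, though it was not called. Pancreatic acinar markers were at 10.1 on CRC + E171 female 2. At least 5 T cell and all 6 endothelial markers were detected on each of these arrays. The part of these cell types in the differences at 21 days was not tested.

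After 7 days Dusp1 and Nab2 were called lower with E171, and for each of them the CRC males held the highest levels of the day. Called were 2 of 10 members, where 12.4% of all genes were called and 5.48% called lower, and the median difference was -0.21 against -0.01 for all genes. Dusp1 had levels of 1.19 and 1.12 in the CRC females and 2.82 and 3.28 in the CRC males, while the CRC + E171 arrays stood at 1.22, 1.16, 1.11 and 0.78. The females of both groups overlapped, and these CRC males stood above all other arrays of the series, of which the highest was at 2.23. The difference was -1.04 (SE 0.38, limma p = 0.0110, adjusted p = 0.207, exact permutation p = 0.171). It was -2.11 in males and 0.03 in females, and the difference between the sexes (-2.14, limma adjusted p = 0.0260) passed adjustment over all genes, as did that of 735 genes at 7 days.

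Nab2 at 7 days was at -0.14 and 0.0011 in the CRC females, 1.28 and 1.49 in the CRC males, -0.18 and -0.83 in the CRC + E171 females and -0.37 and 0.58 in the males. The groups overlapped, with a difference of -0.86 (SE 0.39, limma p = 0.0357, adjusted p = 0.270, exact permutation p = 0.143). Without both CRC males of this day, an alternative chosen after seeing the data, the difference of Nab2 was -0.13 and that of Dusp1 -0.09, and limma called 0 of 10 members (0 at an unadjusted p under 0.05). Each call was also lost with either of these males left out alone (Nab2 -0.65 and -0.58, Dusp1 -0.80 and -0.64). Nab2 was lost as well without any of 3 CRC + E171 arrays of the day (male 1, female 1 and female 2, -0.87 to -0.65). With array weights the differences were -0.22 for Nab2 and -0.25 for Dusp1, and both calls were lost, as they were in a fit of the 7-day arrays alone. Nab2 was also lost without the filter on dim probes (-0.72) and with scan day as a block (-0.74). Egr2 and Egr3 stood out in 1 of the CRC males. In male 1 they were at 2.68 and -0.47, while in male 2 they were at -0.28 and -3.97 and in the CRC females between -2.24 and -1.70 and between -5.15 and -4.06.

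The CRC males of 7 days, and CRC + E171 14 days male 2, stood apart in tissue makeup. Colonocyte markers (8 genes) were at -6.77, -3.42 and -3.09 on these 3 arrays and between -0.16 and 1.84 on the other 28. Neutrophil markers (6 genes) were at 4.60, 5.75 and 4.95, against -2.05 to 2.09 on the others, and fibroblast markers (7 genes) were between 1.01 and 1.09, against -1.07 to 0.43. Squamous epithelium markers (6 of 7 tested) were at 7.50 on CRC male 1, 7.00 on CRC + E171 14 days male 2 and -0.83 on CRC male 2. On the other 28 they ranged from -1.75 to 6.86, so a high level was not particular to this set. Skeletal muscle markers (7 genes) reached 7.16 on CRC male 1, against at most 1.60 on the other 28. These 3 arrays also held the 3 highest Nab2 levels of the 31, between 0.998 and 1.49, where the other 28 lay between -0.97 and 0.58. Dusp1 was at 1.01 on CRC + E171 14 days male 2, within the range of the others, and Junb on the 3 arrays lay between 1.12 and 1.54, against -0.14 to 1.39 on the others. The part of the tissue makeup in these results was not tested.

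**Figure D2:**
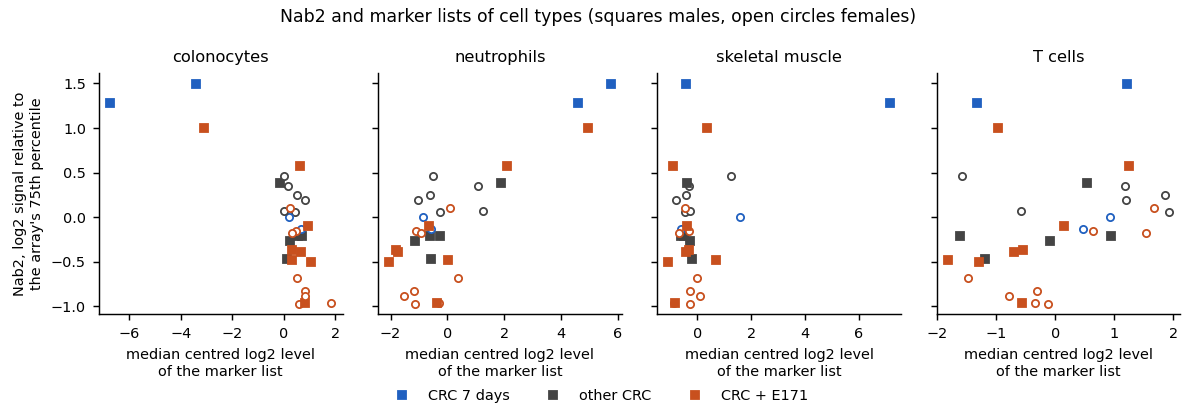
Nab2 level (vertical axis, log2 signal relative to the array's 75th percentile) against the level of 4 marker lists (horizontal axis, median centred log2 signal) on the 31 arrays. The CRC 7 days males and CRC + E171 14 days male 2 lie apart at low colonocyte and high neutrophil levels, with Nab2 between 0.998 and 1.49.

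Jun, the main partner of Fos in AP-1, was higher on each CRC + E171 array than on each CRC array at 7 days. It was at 3.54 and 3.89 in the CRC + E171 females and 3.81 and 3.68 in the males, and at 3.49, 3.26, 3.05 and 3.28 on the CRC arrays. Such an absence of overlap was seen for 1 of 10 members, where 4.85% of all genes showed none and 2.82% were higher without overlap. The difference of 0.46 (SE 0.23, limma p = 0.0548, adjusted p = 0.308, exact permutation p = 0.0286) was a fold change under 1.5 and was not called. The other 7 members were not called and overlapped, with differences from -1.15 (Egr2) to 0.29 (Fosb, where the probe seen on all arrays gave 0.13 and the dim one 0.45).

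Fos, the inducible partner in the AP-1 dimer, was called lower after 14 days of exposure. It was at 1.98 and 1.11 in the CRC + E171 females and 1.96 and 0.81 in the males, and at 3.18 and 3.54 in the CRC females and 2.22 and 1.12 in the CRC males. The groups overlapped only through CRC male 2, the array whose Xist level was that of a female. The difference was -1.05 (SE 0.49, limma p = 0.0435, adjusted p = 0.609, exact permutation p = 0.114), and without that array it was -1.52. The call was lost without CRC female 1 (-0.83), CRC female 2 (-0.71), CRC + E171 female 2 (-0.93) or CRC + E171 male 2 (-0.83). Other settings that ended it included the authors' values, normexp (-0.94) and a fit of the 14-day arrays alone. At this day 1 of 10 members was called, where 6.34% of all genes were, and 0 of 10 showed no overlap, where 5.90% of all genes did. The median difference was -0.56 against 0.01 for all genes.

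Nab2 at 14 days was at -0.96, -0.97 and -0.97 on 3 of the 4 CRC + E171 arrays and at 0.998 on male 2, the array with low colonocyte markers. The CRC arrays stood at 0.35, 0.07, 0.39 and -0.47. The difference over all 8 arrays was -0.56 (SE 0.39, adjusted p = 0.751) and was not called. It was -1.05 without CRC + E171 male 2 and -1.01 with array weights, and was called in both fits. The 7 macrophage markers, all detected on each array of the day, were at -0.84 and -0.63 in the CRC + E171 females and -0.23 and 0.22 in the males, and at 0.25 and 0.23 in the CRC females and 0.38 and -0.48 in the CRC males. On both measures male 2 was the highest CRC + E171 array and the lowest CRC array. Of the 15 marker lists 2 had a call at this day, with 1 of 7 macrophage and 1 of 8 smooth muscle markers lower, and the part of these cells in the differences of the day was not tested. Egr2 ranged from -2.79 to -1.72 with E171 and from -2.50 to -0.54 without, a difference of -1.06 (SE 0.76, adjusted p = 0.760). Egr3 ranged from -5.44 to -4.19 with E171 and from -4.51 to -2.78 without (-1.20, SE 0.91, adjusted p = 0.780). Neither was called, while both were in a fit of the 14-day arrays alone and with array weights (-1.46 and -1.64). Egr1, from -0.56 to -0.02 and from -0.95 to 1.30, had a difference of -0.64 (SE 0.48), and was called without CRC male 2 (-1.07). After 2 days limma called 0 of 10 members (0 at an unadjusted p under 0.05), where 1.72% of all genes were called, and 0 of 10 showed no overlap, where 3.91% did. The differences at 2 days ran from -0.20 (Egr2) to 0.81 (Fosb). For Fosb the probe seen on all arrays gave 0.41, while 1.22 came from the dim probe, which passed the filter only through CRC + E171 at 2 days (above background on 3 of its 4 arrays). Ier2 was called on none of the 4 days, with differences from -0.12 to 0.21.

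**Figure D3:**
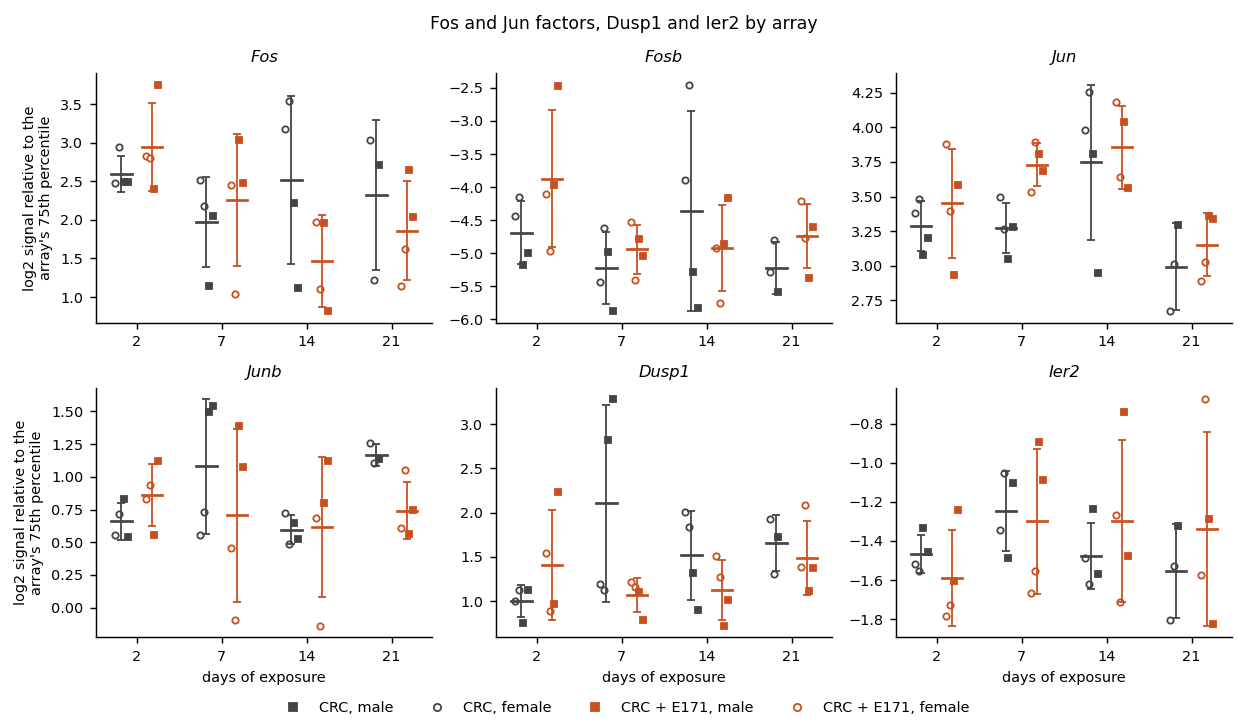
Log2 signal of Fos, Fosb, Jun, Junb, Dusp1 and Ier2 relative to the array's 75th percentile (vertical axis), by days of exposure (horizontal axis); squares are males, open circles females, bars the mean ± SD of 3 or 4 arrays. The CRC males of 7 days lie at 2.82 and 3.28 for Dusp1, above the other arrays.

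**Figure D4:**
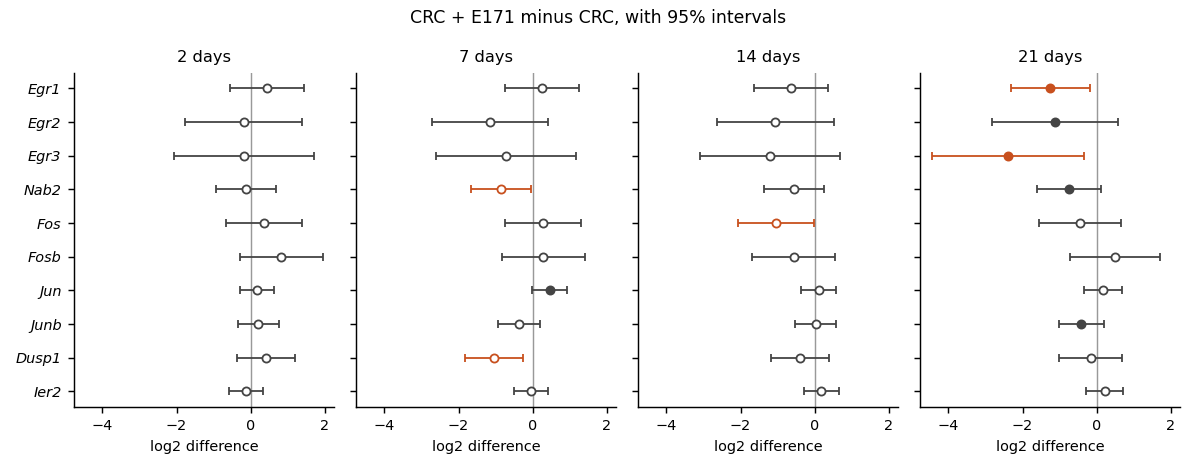
Difference of each member, CRC + E171 minus CRC on the log2 scale (horizontal axis), with the 95% interval from limma, at 2, 7, 14 and 21 days. Orange marks a call by fold change and unadjusted p, and filled points mark groups whose arrays did not overlap; Egr1 (-1.25) and Egr3 (-2.40) at 21 days are both.

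Averaged over the 4 days, Egr2 differed by -0.88 on the log2 scale (SE 0.39, limma adjusted p = 0.496) and Egr3 by -1.13 (SE 0.47, adjusted p = 0.496), and both were called lower. The size for Egr3 is uncertain, since it was above background on only 1 of the 4 CRC + E171 arrays of 21 days. Nab2 differed by -0.57 (SE 0.20, adjusted p = 0.496), which was past the p threshold with a fold change under 1.5. It was called with normexp (-0.60), the authors' values (-0.63) and sex as a covariate (-0.59), and in 10 of the fits that left out 1 array (-0.70 to -0.59). These 2 calls of Egr2 and Egr3 among 10 members compare with 1.79% of all genes, and 0 members passed adjustment, where 0.00505% of all genes did. Without the CRC males of 7 days neither gene was called (Egr2 -0.49, Egr3 -0.83), nor without the 3 arrays of low colonocyte markers (-0.55 and -0.89). Leaving out CRC 21 days female 2 ended both calls, and Egr2 was also lost without CRC 2 days female 2, CRC 14 days female 1 or CRC + E171 7 days female 2 (-0.81 to -0.77). Egr3 was also lost with normexp (-0.51) and without the filter on dim probes (-0.64). For Nab2 the difference was -0.51 without the 3 arrays of low colonocyte markers and -0.39 without the CRC males of 7 days, both past the p threshold. Whether the E171 difference changed between days was tested as well, and limma gave 0 of 10 members an unadjusted p under 0.05, where 6.52% of all genes had one.

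For a given day, CRC and CRC + E171 arrays were never on 1 slide. Slides held CRC arrays of 7 days with CRC + E171 arrays of 21 days, or the reverse, so that the mean difference of those days can be taken within slides. It was -0.81 for Nab2 (SE 0.30, limma adjusted p = 0.508) and -1.63 for Egr3 (SE 0.69, adjusted p = 0.508), and both were called, where 4.47% of all genes were. The size for Egr3 is uncertain, since it was above background on only 1 of the 4 CRC + E171 arrays of 21 days. Without the CRC males of 7 days the differences of Nab2 and Egr3 were -0.45 and -1.03 and were not called. Both calls were also lost with array weights (-0.37 and -0.87), and that of Egr3 with normexp (-0.69). Egr3 was also lost without CRC 7 days male 1, CRC 21 days female 2, CRC + E171 7 days male 1, CRC + E171 7 days female 2 or CRC + E171 21 days female 2 (-1.49 to -1.10). Over 2 and 14 days limma called 0 of 10 members within slides (0 at an unadjusted p under 0.05), where 2.26% of all genes were called. Between males and females 0 of 10 members were called by limma, where 2.98% of all genes were. Junb alone had an unadjusted p under 0.05, higher in males by 0.31 (SE 0.13, adjusted p = 0.461), a fold change under 1.5.

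The order of the 8 group means placed CRC + E171 at 21 days lowest for Egr1, Egr2, Egr3 and Nab2. The step from CRC + E171 at 14 days down to it was larger than the pooled SD of both groups for Egr1 (1.12), Egr2 (0.63) and Egr3 (1.44), while the other neighbours in the order of these genes lay within that spread. For Egr3 the size of this step, and of its difference from 2 days below, is uncertain, since 3 of the 4 CRC + E171 arrays of 21 days were not above background. For Nab2 no neighbouring groups differed beyond it. Among the CRC + E171 arrays 3 of 10 members had an unadjusted p under 0.05 for a difference between days, where 14.6% of all genes did. They were Egr1 (limma adjusted p = 0.169), Jun (adjusted p = 0.269) and Fos (adjusted p = 0.315). Against 2 days, Egr1 was called at 21 days with a difference of -1.80 (SE 0.48, adjusted p = 0.125), as were Egr3 (-1.92) and Fos (-1.09), where 7.39% of genes were called. At 14 days Fos differed from 2 days by -1.48 (SE 0.49, adjusted p = 0.200) and was called, where 9.64% of genes were. Among the CRC arrays Jun was the 1 member of 10 that differed between days at an unadjusted p under 0.05 (adjusted p = 0.499), where 9.89% of all genes did. Its mean was lowest at 21 days, 2.99 ± 0.31 (SD, n = 3), and highest at 14 days, 3.75 ± 0.56 (SD, n = 4). Dusp1 was called higher in CRC mice at 7 than at 2 days (1.10, SE 0.38, adjusted p = 0.208), where 13.4% of genes were called. The CRC males of 7 days stood at 2.82 and 3.28, while the CRC females of that day, at 1.19 and 1.12, were close to the 2-day range of 0.75 to 1.13.

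Pairs of members were compared array by array. Of the 45 pairs, 10 were correlated over the 31 arrays after subtraction of the group means (adjusted permutation p under 0.05 over the 45 pairs, 100000 resamples), all 10 positively. The arrays share slides and scan days, and 11 pairs passed with scan day means also subtracted. Egr2 and Egr3 went together most closely (r = 0.92, rho = 0.91, both p = 1e-05, the smallest these resamples can give, both adjusted p = 0.000450), and without the 2 arrays farthest from the median of Egr2 r was 0.89. Nab2 went with Egr2 (r = 0.65, rho = 0.72, permutation p = 0.00019 and 3e-05, adjusted p = 0.0036 and 0.000675), Egr1 (r = 0.55, rho = 0.60, permutation p = 0.00135 and 0.00045, adjusted p = 0.00868 and 0.00570) and Egr3 (r = 0.53, rho = 0.60, permutation p = 0.00281 and 0.00065, adjusted p = 0.0158 and 0.00570). Without the 2 farthest arrays these were 0.68, 0.53 and 0.54. Egr1 and Dusp1 had an r of 0.61 (rho = 0.53, permutation p = 0.00024 and 0.00275, adjusted p = 0.0036 and 0.0177, 0.59 without the 2 farthest).

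Fos and Jun were also correlated (r = 0.59, rho = 0.58, permutation p = 0.00043 and 0.00076, adjusted p = 0.00484 and 0.00570), with an r of 0.58 without the 2 farthest arrays. Without subtraction of the group means their r was 0.27. Fos had an r of 0.43 with Egr1 and 0.38 with Fosb (adjusted permutation p = 0.0610 and 0.0973), which did not pass. With Egr2 (-0.14), Egr3 (-0.15) and Nab2 (-0.07) its r was near 0. Within the 3 scan days (12, 12 and 7 arrays) the r of Egr2 and Egr3 was 0.95, 0.84 and 0.93, and that of Fos and Jun 0.53, 0.71 and 0.63. The other 4 pairs that passed were Egr1 with Egr2 (0.58), Egr1 with Junb (0.48), Nab2 with Junb (0.58) and Junb with Ier2 (0.47), of which the last did not pass by Spearman's rho (rho = 0.42, adjusted p = 0.0931). Without the 3 arrays of low colonocyte markers 16 pairs passed, but not every named pair kept its r. It then was 0.27 for Nab2 with Junb, 0.31 for Egr1 with Junb and 0.45 for Egr1 with Dusp1. For Egr2 with Egr3 it was 0.93, for Egr1 with Egr2 0.58, and for Nab2 with Egr2, Egr1 and Egr3 0.64, 0.47 and 0.57. Fos then had an r of 0.64 with Egr1 and 0.55 with Jun.

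**Figure D5:**
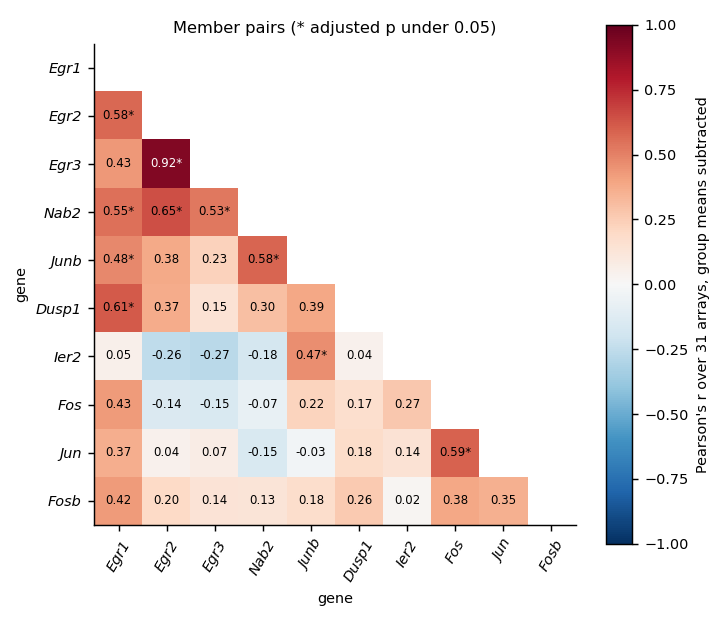
Pearson's r for each of the 45 pairs of members over 31 arrays, with group means subtracted (colour, from -1 to 1; rows and columns are genes). An asterisk marks an adjusted permutation p under 0.05. Egr2 and Egr3 reach 0.92 and Fos and Jun 0.59, while Fos is at 0.43 with Egr1 and near 0 with Egr2, Egr3 and Nab2.

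Among 17148 named genes, those most like each key member in level over the 31 arrays differed between members. Egr3 was followed most closely by Gata3, a transcription factor of T helper cells and innate lymphoid cells (r = 0.92), then by Egr2 (0.92) and Bin1 (0.87), a membrane-bending protein. Nab2 was followed by Serpina3n, an acute-phase protease inhibitor (0.92), Lilra6, a leukocyte receptor (0.92), and Elk3, an ETS partner of serum response factor (0.92). Fos was followed by Atf3, itself an immediate-early gene (0.73), Tmem131 (0.65) and Mtnr1a (0.64). Egr1 was followed by Itgav, an integrin subunit (0.77), Rnf125 (0.74) and Clic4 (0.74). With the group means subtracted the r was 0.93 for Gata3 with Egr3, 0.71 for Atf3 with Fos and 0.70 for Itgav with Egr1, and for Nab2 it was 0.93 with Elk3 and 0.92 with Serpina3n.

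Of the 23 other immediate-early genes tested, 6 were called lower and 0 higher at 7 days, where 5.48% of all genes were called lower. At 14 days 3 were called, all lower, where 6.34% of all genes were called in either direction. At 2 days 1 was called lower (Myc), where 1.72% of all genes were called, and at 21 days 0, where 2.67% were. No gene of these lists passed adjustment. The median difference of the 23 was 0.15, -0.38, -0.30 and -0.08 at 2, 7, 14 and 21 days. Ccn2, a matricellular growth factor, had no overlap at 7 days (0.38 to 1.76 with E171 and 1.83 to 2.96 without, -1.36, SE 0.43, limma adjusted p = 0.197) and was also called at 14 days (-1.34). Klf2, a factor of endothelium and resting lymphocytes, had no overlap at 14 days (0.43 to 1.04 with E171 and 1.21 to 1.92 without, SE 0.37, limma adjusted p = 0.591). Of 7 other AP-1 subunits, Fosl1 and Jdp2 were called lower at 7 days, 2 of 7 where 5.48% of all genes were, and 0 on the other days. Jdp2, a repressor of AP-1, ranged from -1.13 to -0.96 with E171 and from -0.67 to 1.11 without (-1.33, SE 0.42, limma adjusted p = 0.197).

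Of 6 genes for serum response factor and its partners, 1 was called lower at 7 days (Elk3, -0.87), where 5.48% of all genes were, and 0 on the other days. Of 11 feedback inhibitors of ERK, 1 was called, Spry4 at 21 days (-2.17), with overlap, where 2.67% of all genes were called. At 7 days, where 12.4% of all genes were called, 7 of 8 colonocyte, 7 of 7 goblet cell and 7 of 7 epithelium markers were called higher. Called lower were 5 of 7 skeletal muscle, 3 of 6 endothelium, 3 of 7 macrophage, 2 of 6 neutrophil, 2 of 7 acinar and 1 of 7 fibroblast markers, and the part of these cell types in the calls of that day was not tested. Nab1, the paralog of Nab2, was not analysed here.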

How the data were processed

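RNA of 31 distal colons was hybridised to one-colour Agilent arrays, scanned and extracted by the authors with Agilent Feature Extraction 10.7.3.1 (mm9 positions per the file headers). The deposited intensity of each spot is background-subtracted, with no scaling across arrays. A matrix of log2 values made by the authors, filtered and imputed by nearest neighbours, whose normalization is not given in the sources used here, served as an alternative. Main values were log2 intensities minus the 75th percentile of the array. The filter asked that in 1 group or more at least 60% of arrays had an unflagged spot clearly over background, with a group mean of log2 signal of 4 or more, which left 42787 of 56605 probes. Probes of a gene (matched to RefSeq by accession, symbol or synonym) were averaged. Differences were fitted with limma 3.58.1 (R 4.3.3, statmod 1.5.0), tested on simulated data, and correlations with Python 3.11.15.

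A fold change of 1.5 and an unadjusted p under 0.05 made a call. The methods state that fold change on the log2 scale, and it was taken as linear here. The members, the lists of related genes and the marker lists of 15 cell types were chosen with earlier results of these data known. Named were all members, list genes called without overlap (up to 3 per list and day), 4 other called list genes (Myc, Fosl1, Elk3 and Spry4), which were added after their values were seen, and the 3 genes most like Egr1, Egr3, Fos and Nab2. Alternatives were another scaling, background correction, filter or probe choice, the authors' values, other covariates, blocks and variance settings, the arrays of a comparison alone, and leaving out each array. Leaving out the arrays of low colonocyte markers, and the test of the sexes' difference, were added after seeing the data. The result of 1 list of related genes is not reported here. Arrays of the same sex and replicate number were checked for deviating together (r over 0.1), which held for 8 of 15 pairs (r from -0.18 to 0.48), and for each of the 3 pairs at 21 days (0.21, 0.24 and 0.48) but not for each pair of any other day.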

Additional observations from a re-analysis of the deposited data

Results flagged for a closer look

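On 3 occasions among 70 groups of 4 arrays, 1 array lay far from the other 3 of its group for a member, where chance marks about 1 in 20 groups. CRC + E171 14 days male 2 was high for Nab2, at 0.998 against -0.97 to -0.96, so that its gap took up 0.996 of the group's range. The same array was high for Egr2, at -1.72 against -2.79 to -2.70 (0.917 of the range). It is also the array with neutrophil markers at 4.95 and colonocyte markers at -3.09. CRC 2 days female 2 was high for Fos, at 2.95 against 2.47 to 2.49 (0.971 of the range).

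The difference of Dusp1 between CRC + E171 and CRC at 7 days was not the same in males and females. The male difference minus the female difference was -2.14 (limma adjusted p = 0.0260 over 19797 genes), with 2 arrays per sex and group. The male difference was set against the CRC males of 7 days, whose colonocyte markers were at -6.77 and -3.42 and neutrophil markers at 4.60 and 5.75, and the test was added after these arrays were seen. Their part in the result was not tested. In such tests of the 10 members on each of the 4 days, Egr2 at 7 days (-2.75, adjusted p = 0.223), Fosb at 2 days (2.12) and Fosb at 14 days (3.22, adjusted p = 0.319) also had an unadjusted p under 0.05, and none of these passed adjustment. Sexes are as labelled, and CRC 14 days male 2 had Xist in the range of the females. Fosb at 14 days was at -5.29 and -5.84 in the CRC males and at -3.89 and -2.45 in the CRC females, and its level averages in a probe that was above background on 6 of the 31 arrays. At 7 days 18.2% of all genes had such a p, at 2 days 0.248% and at 14 days 8.18%.

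Of the 3 member probes left out as dim, 1 probe of Egr3 was above background on 1 CRC + E171 array and on 0 CRC arrays. The Nab2 probe left out was above background on 1 CRC + E171 and 2 CRC arrays, and that of Junb on none.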

How the results depend on the processing

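For the 70 member differences, 1060 alternative values and 930 values with an array left out were set against the main value. Of these, 0 had the opposite sign where either of the values compared was called, and 91 had it where neither was. Among the latter were Egr2 and Junb at 7 days, which were called lower without 1 array (-1.77 without CRC female 1, -0.60 without CRC + E171 male 1) but were positive, and not called, with array weights (0.31 and 0.05) and without both CRC males (0.43 and 0.07). Counts of members called moved as follows, from 2 at 7 days, 1 at 14 days, 2 at 21 days and 2 in the mean over days. At 7 days there was 1 without the filter or with scan day as a block, and 0 in a fit of that day's arrays, with array weights or without both CRC males. At 14 days there were 0 with normexp, the authors' values or the replicate block, 2 in a fit of that day's arrays and 4 with array weights. At 21 days there was 1 with normexp and 4 in a fit of that day's arrays. In the mean there were 3 with the authors' values, sex as a covariate or the p alone, 1 without the filter and 0 without the CRC males of 7 days or the 3 arrays of low colonocyte markers. For a change of the difference between days (0), array weights gave 1, leaving out both CRC males 1 and leaving out the 3 arrays 2. For days among CRC arrays (1), normexp and the authors' values gave 2 and scan day as a block 0. For sex (0), array weights gave 2, the p alone 1 and leaving out the 3 arrays 1. Within slides at 7 and 21 days (2), normexp gave 1, the authors' values 4, and array weights and both sets of arrays left out 0. Within slides at 2 and 14 days (0), array weights gave 2 and leaving out the 3 arrays 1. Correlated pairs (10) numbered 7, 4 and 2 within scan days 1, 2 and 3 alone (12, 12 and 7 arrays), and 16 without the 3 arrays.

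Leaving out each array in turn gave 0 to 1 members at 2 days, 0 to 3 at 7 days, 0 to 2 at 14 days and 1 to 2 at 21 days. The ranges were 0 to 3 for the mean, 0 to 2 for the change between days, 0 to 2 for days among CRC arrays, 2 to 3 for days among CRC + E171 arrays, 0 to 0 for sex, 1 to 4 and 0 to 1 within slides, and 8 to 13 for pairs. The 7-day count was 0 without CRC male 1 or CRC male 2 alone, and without CRC female 1 Dusp1 reached an adjusted p of 0.0404 (-1.34), the lowest among its alternatives and the only one under 0.05 for a member. The causes were not tested.

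With the replicate block (sex and number), members called numbered 0, 2, 0 and 2 at 2, 7, 14 and 21 days and 3 in the mean over days, and the call of Fos at 14 days was lost (-1.05). At 21 days, the day on which every same-numbered pair deviated together, the called members were the same 2 genes, Egr1 and Egr3. Normexp raised the median of all genes at 2 days from 0.06 to 0.12 and at 21 days from 0.02 to 0.11, and the authors' values set it at -0.10 at 21 days. Signal over background limits Egr3 and 1 Fosb probe.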
